A study of Mus musculus with 11 samples.

Results

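The 10 genes described here were the hepcidin genes Hamp and Hamp2, the BMP ligands Bmp2 and Bmp6, the hepatocyte iron sensor Tfr2, the hepcidin suppressor Tmprss6, the BMP response genes Id1 and Smad7, the iron exporter Slc40a1 and the iron uptake receptor Tfrc. They were picked by name from the 20893 genes of a liver RNA-seq table, and all 10 were among the 14244 genes that passed the filter on low values. Total RNA of 11 whole C57BL/6 livers was sequenced, 1 library each. The 4 control livers (genotype ROSA26-rtTA-IRES-EGFP with WT, on doxycycline food for 7 days) lacked the tetYAP transgene. The 4 livers at 3 days and the 3 livers at 7 days were ROSA26-rtTA-IRES-EGFP with tetYAP, fed doxycycline for the time given. In the study's model the rtTA is released by a Cre driven by the albumin promoter, which acts in hepatocytes, and tetYAP encodes an activated mutant of YAP. All groups, controls included, received doxycycline. Controls matched the 7-day livers in time on this food, and no control matched the 3-day livers. Comparisons that involve the 3-day livers therefore also differ in time on doxycycline. Age and sex of the mice were not given in the sources used here.

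Hepcidin is the peptide hormone by which hepatocytes restrain iron entry into plasma: it binds ferroportin, the product of Slc40a1, and causes its loss from the surface of macrophages, enterocytes and hepatocytes. BMP2 and BMP6, made mainly by sinusoidal endothelial cells in liver, act on hepatocytes through type I and type II BMP receptors, hemojuvelin and SMAD1, SMAD5 and SMAD4 to raise hepcidin transcription, and the same signal raises Id1, Smad7 and Smad6. Transferrin receptor 2 and HFE relay transferrin-bound iron to this pathway, and the protease matriptase-2 (Tmprss6) restrains it. Mice carry a pair of hepcidin genes. Hamp encodes the hormone, and Hamp2 is a neighbouring copy for which no comparable role in iron balance is established.

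Values are eRPKM, which the authors made from exon reads by dividing by gene length and library size. A gene was called where limma, fitted on log2(eRPKM + 0.5) across all tested genes and all 3 groups, gave an adjusted p under 0.01 with a log2 fold change beyond 0.5. Fold changes are on that scale and understate changes of low genes. Beside it, an exact two-sided permutation test compared the mean log2 values of single genes. With 4 livers against 3 its smallest p is 0.0286. The labels do not say whether livers of a group came from separate litters or experiments, so that p-values measure the spread between these samples.

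At 3 days, 0 of the 10 genes were called, against 0.0421% of all tested genes (6 of 14244, with 1718 at an unadjusted p under 0.05). Of the 10, only Id1 had an unadjusted p under 0.05 by limma at 3 days, and limma-voom on recovered reads also called 0. At 7 days against control, 2 of the 10 were called, Id1 higher and Tfr2 lower, against 23.8% of all tested genes, so that the share of these genes was no greater than the background. Of all tested genes 18.0% were called higher and 5.77% lower. Between 3 and 7 days 1 of the 10 was called, Id1, against 19.3% (14.0% higher and 5.31% lower). The plot of log2 fold changes shows all 10 genes in both comparisons with control.

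**Figure D1:**
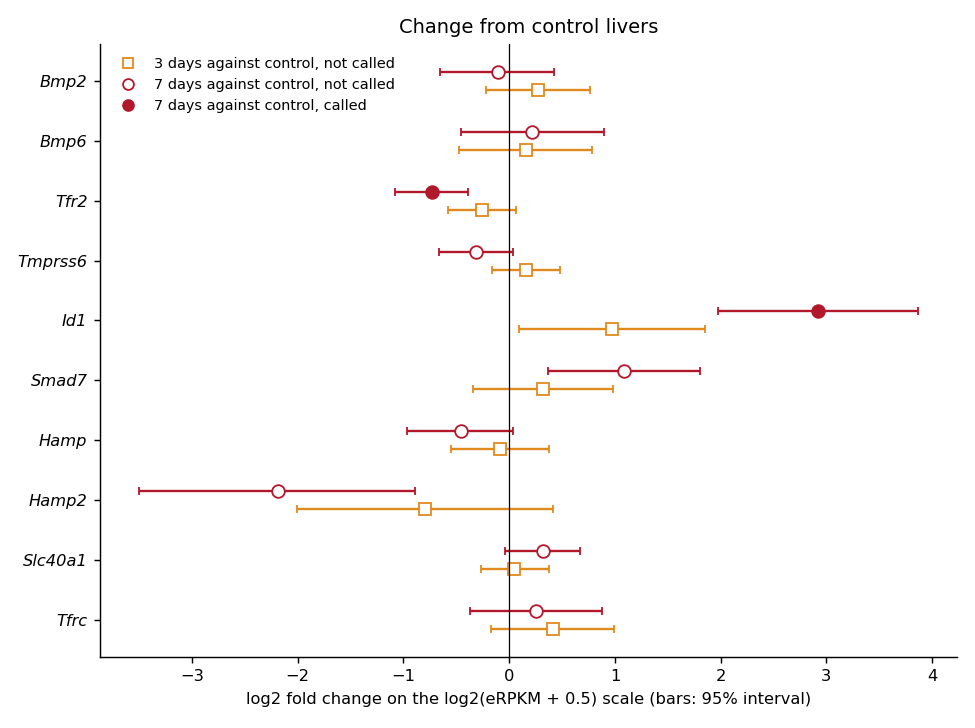
Log2 fold change (horizontal axis, log2(eRPKM + 0.5) scale, bars are 95% intervals from limma) of the 10 genes at 3 days (squares) and 7 days (circles) against control livers, with filled symbols for called genes. Id1 at 2.92 and Tfr2 at -0.73 are the filled symbols, and the interval of Hamp at 7 days runs from -0.97 to 0.04.

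Several measurements of the libraries bear on these values. The reads behind each value were recovered from the steps of low values. They came to between 1258027 (control 4) and 6016663 (7-day liver 2) on genes, with at least 5380609 in each 7-day liver. Of the other livers only control 2, with 5566248, was as deep. Depth as a covariate was thus largely confounded with the 7-day group, so a call lost with it cannot tell depth from time. Control livers 1 and 2 and 7-day liver 2 listed 17390, 18034 and 19278 genes above 0, whereas the other 8 listed 14628 to 15807. By Xist and 4 Y-linked genes, control livers 2 and 3, 3-day livers 3 and 4 and all 3 livers at 7 days were female, and the other 4 male, so that at 7 days sex and time were partly confounded. The Yap1 row had a mean of 18.2 eRPKM in controls, 16.8 at 3 days and 18.4 at 7 days, and whether transgene reads were counted there is not given in the sources used here. The YAP target Ctgf had 8.69 ± 3.92 (SD, n = 4) in controls, which became 24.1 ± 10.1 (SD, n = 4) after 3 days of induction and 96.7 ± 8.28 (SD, n = 3) after 7 days, and its ranges in the 3 groups did not overlap.

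Reads of many dense genes did not scale with depth, which touches Hamp, Tfr2 and Tmprss6. Control 2 had 4.42 times the reads of control 4, but 1.28 times the reads of Alb (albumin), 1.92 times those of Hamp, 3.05 times those of Tfr2 and 3.36 times those of Tmprss6. For Slc40a1, also a dense gene, the ratio was 5.27. Among genes with at least 600 reads per kilobase on average, the class of Hamp, the median gene was higher in control 4 than in control 2 by 1.15 on the log2 scale, and at 7 days against control the class median was -0.73. In the class of 300 to 600 reads per kilobase, which held Tfr2, Tmprss6 and Slc40a1, the medians were 0.38 and -0.38. Id1 and Hamp2 lay in the class of 100 to 300, with medians of -0.26 and 0.01, and Bmp2, Bmp6, Smad7 and Tfrc in the class under 100, with medians of -0.52 and 0.39. Control 2 was female and control 4 male, and this pair alone was compared in this way. A class median at 7 days can hold changes with induction as well as depth, and their parts were not tested. The class median is given beside the 7-day values of dense genes below as a description. Over all tested genes the median at 7 days was 0.26, and 75.7% of the calls were higher. After scaling by median-ratio size factors the median fell to 0.03 and 60.9% of the calls were higher, and with quantile normalization -0.06 and 51.1%.

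**Figure D2:**
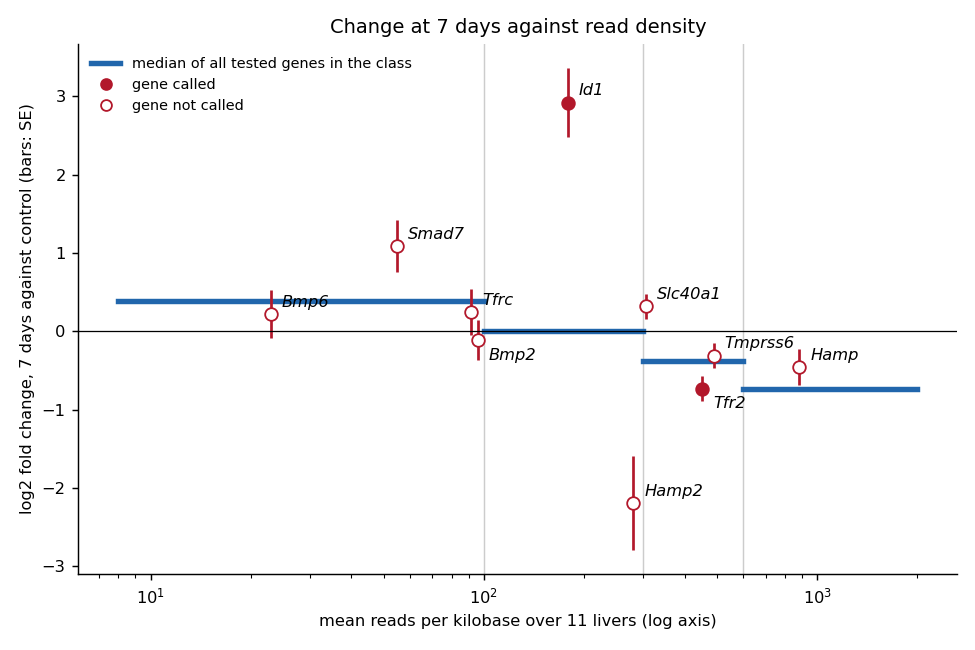
Log2 fold change at 7 days against control (vertical axis, bars are SE) of the 10 genes against their mean reads per kilobase (log axis), with the median of all tested genes in each of 4 density classes as a blue line (the outer classes are open-ended). Class medians step down from 0.39 to -0.73, Hamp lies above its line, Tfr2 and Hamp2 lie below theirs, and Id1 lies furthest above.

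Both hepcidin genes lie on mouse chromosome 7 on the minus strand (mm9), Hamp at 31727390 to 31729036 and Hamp2 at 31707391 to 31709200. Their upstream sequences are shown because the values of the pair are set side by side below. RefSeq (GRCm38.p6) gave promoter windows for 5 of the 10 genes, and the 250 bases before the start site are printed for this pair, 5′ to 3′, with capitals on the place of a GGCGCC hexamer in Hamp, the letters known as a BMP response element of the Hamp promoter, and on the aligned place in Hamp2. The windows are chr7:30944030-30944279 (Hamp, minus strand) and chr7:30924182-30924431 (Hamp2, minus strand).
Hamp: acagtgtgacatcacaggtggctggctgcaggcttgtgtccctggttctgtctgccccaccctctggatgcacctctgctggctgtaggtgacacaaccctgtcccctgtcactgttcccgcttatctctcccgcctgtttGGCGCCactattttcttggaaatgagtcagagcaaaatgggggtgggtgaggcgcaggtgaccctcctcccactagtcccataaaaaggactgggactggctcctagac
Hamp2: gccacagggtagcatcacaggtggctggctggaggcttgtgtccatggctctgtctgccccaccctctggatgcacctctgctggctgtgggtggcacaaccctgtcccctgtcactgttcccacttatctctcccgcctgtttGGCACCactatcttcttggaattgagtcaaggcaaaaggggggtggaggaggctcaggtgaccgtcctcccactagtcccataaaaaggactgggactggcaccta

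Of 247 aligned upstream bases 227 (91.9%) were identical. Within the hexamer the pair differed by 1 substitution, G4A, with Hamp's base first and positions counted from 1 at the 5′ end of the hexamer. GGCGCC (its own reverse complement) stood 104 to 109 bases before the start site of Hamp and in 1 of 2 windows of Tfrc, and in no window of Hamp2, Bmp6 or Tfr2, and 9.59% of all 32851 RefSeq windows of 250 bases held it. The STAT pattern TTCNNNGAA (both strands searched) was present in both hepcidin windows, and in 7.02% of all windows. GGAATG, the core letters bound by TEAD factors, was searched on both strands and stood in 1 of 3 windows of Tfr2, in none of the windows of Hamp, Hamp2, Bmp6 or Tfrc, and in 12.6% of all windows. Letters in a window are a description and do not show binding. The mature transcripts of the pair were 94.4% identical over 392 aligned bases, with up to 87 identical bases in a row, so how the authors' counting split reads between the 2 genes is uncertain.

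Hamp was among the most abundant liver transcripts in each library. It measured 236, 174, 272 and 398 eRPKM in control livers 1 to 4, 272, 229, 254 and 221 at 3 days, and 176, 175 and 211 at 7 days. The mean was 270 ± 94.5 (SD, n = 4) in controls, 244 ± 23.2 (SD, n = 4) after 3 days and 188 ± 20.7 (SD, n = 3) after 7 days. The ranges of control and 7-day livers overlapped, and all 3 livers at 7 days lay below all 4 at 3 days. Hamp was not called in any comparison. Its log2 fold change was -0.09 (SE 0.21, adjusted p = 0.905 by limma) at 3 days and -0.46 (SE 0.23, adjusted p = 0.132 by limma, exact permutation p = 0.200) at 7 days, with a 95% interval from -0.97 to 0.04. From 3 to 7 days it was -0.38 (SE 0.23, adjusted p = 0.217 by limma, exact permutation p = 0.0286).

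The sign of the 7-day value of Hamp depended on the scaling: it was 0.27 (adjusted p = 0.0411 by limma) after quantile normalization and 0.04 with log2 depth as a covariate. It was -0.22 (adjusted p = 0.508 by limma) among female livers. It also lay above the median of its read density class, -0.73. By rank of eRPKM among the 20893 genes of the library, Hamp had ranks 65 to 107 in controls, 42 to 111 in 3-day livers and 26 to 63 in 7-day livers, counted from the most abundant, so that its rank in every 7-day liver was above that in every control, while its eRPKM was not higher. No direction is therefore given for Hamp. Over the 11 livers, the 3 genes whose log2 values, relative to the control mean, stayed nearest to those of Hamp among the 12575 other genes with a mean of at least 1 eRPKM were Atp5b, Rps2 and Rpl9, with root mean square differences of 0.10, 0.10 and 0.12.

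Hamp2 showed a sex difference and, within female livers, a lower level at 7 days. In female livers it was 139 and 191 eRPKM in controls, 128 and 114 at 3 days, and 20.3, 26.1 and 17.6 at 7 days. In male livers it was 78.6 and 44.4 in controls and 31.7 and 21.4 at 3 days. The 7-day female livers lay below every other female liver, and their range overlapped that of the 3-day males. Across control and 3-day livers Hamp2 was higher in females by 1.82 on the log2 scale (SE 0.25, adjusted p = 0.00601 by limma with group and sex in the fit) and was the 1 gene of the 10 called for sex, against 0.393% of all tested genes. The call for sex ended without any 1 of 7 of these 8 livers, all but control 1 (adjusted p up to 0.0489). This comparison was added after the values were seen.

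Over all livers, Hamp2 at 7 days was lower than in control by a log2 fold change of -2.19 (SE 0.60, 95% interval -3.50 to -0.89), which missed the threshold (adjusted p = 0.0123 by limma, exact permutation p = 0.0571), although all 3 livers lay below all 4 controls. The controls alone ranged from 44.4 to 191. Among female livers the 7-day difference was -2.92 (SE 0.22, adjusted p = 7.2e-05 by limma), and with log2 Xist as a covariate over all livers it was -2.90 (SE 0.32, adjusted p = 4.3e-05 by limma). With 2 female controls and 3 female livers at 7 days the exact permutation test cannot give less than 0.10, the value it gave. The median of its read density class was 0.01, and the difference passed the threshold under both other scalings (-2.46 with size factors and -2.40 with quantile normalization). It also passed without control 4 or 3-day livers 2 or 3 (adjusted p = 0.00736, 0.00633 and 0.00720 by limma). In all, only 10 of 26 alternatives called it, with an adjusted p of up to 0.0482 by limma, while the sign stayed negative. Those that did not included the replicate block, no filter and limma without trend (adjusted p = 0.0223, 0.0180 and 0.0186 by limma). At 3 days the value was -0.80 (SE 0.56, adjusted p = 0.592 by limma).

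As a share of the pair, Hamp2 made up 44.4% and 41.2% of the summed eRPKM of both genes in female controls, 33.5% and 34.1% in 3-day females, and 10.3%, 13.0% and 7.67% in 7-day females. In males the shares were 25.0% and 10% in controls and 10.4% and 8.54% at 3 days. Hamp2 rested on 25 reads in control 4, the shallowest library, against 344 in control 2. The sex of a liver and its depth were not independent of time here, and their part in the pair's shares was not tested.

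**Figure D3:**
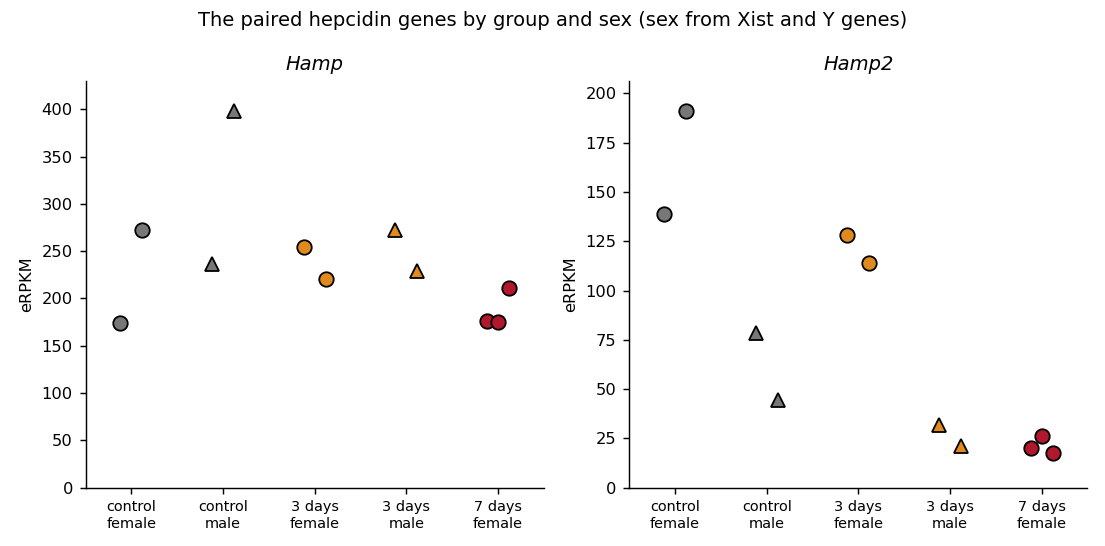
eRPKM of Hamp (left) and Hamp2 (right) in each liver by group and by sex, as read from Xist and Y-linked genes (circles female, triangles male, axes from 0). Hamp2 in female livers is 139 and 191 in controls and between 17.6 and 26.1 at 7 days, whereas Hamp overlaps between controls and 7 days.

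Of the ligands, Bmp2 and Bmp6 showed no detectable change. Bmp2 (chromosome 2, 133377895 to 133388621, plus strand) measured 24.1, 27.8, 17.8 and 18.8 eRPKM in controls, 33.4, 18.3, 22.4 and 35 at 3 days and 20.4, 24.5 and 16.3 at 7 days. For Bmp2 the 7-day log2 fold change was -0.11 (SE 0.25, 95% interval -0.65 to 0.42, adjusted p = 0.746 by limma). Bmp6 (chromosome 13, 38436995 to 38592183, plus strand) ranged from 2.90 to 6.02 in controls, from 3.88 to 8.20 at 3 days and from 4.09 to 7.51 at 7 days, on as few as 9 reads in a library. Its value at 7 days was 0.22 (SE 0.31, 95% interval -0.46 to 0.90, adjusted p = 0.609 by limma), and it turned negative under both other scalings (-0.02 with size factors and -0.43 with quantile normalization). Exons of Bmp6 overlap those of Txndc5 on the other strand, and the alignment was unstranded, so reads of the 2 genes cannot be told apart there. Group ranges overlapped for both ligands at both times.

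Of 8 tested markers of sinusoidal endothelium, the main source of both ligands, 3 were called higher at 7 days and 0 lower. Of all tested genes 18.0% were called higher and 5.77% lower. The summed level of these markers was 138 to 246 eRPKM in controls, 167 to 303 in 3-day livers and 251 to 292 in 7-day livers. The 7-day range thus lay above that of controls and within that of 3-day livers. In bulk tissue, a change in the number of cells of a type and a change in RNA per cell cannot be told apart. The part of endothelial markers in the values of Bmp2 and Bmp6 was not tested.

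Of the other 8 ligands tested, Bmp4, Gdf15, Inhbb and Inhba were called higher at 7 days and the remaining 4 were not called. Of 10 ligands on a list that includes Bmp2 and Bmp6, 4 were called higher and none lower, beside 18.0% and 5.77% of all tested genes. The list median was 0.53 beside 0.26 over all tested genes. Of the called ligands only Bmp4 is a BMP, whereas Gdf15 and the activin subunits Inhbb and Inhba are other members of the TGF-beta family. Bmp4 was 2.37, 2.57, 2.83 and 0.389 eRPKM in controls, 2.74, 6.57, 4.76 and 3.70 at 3 days and 10.7, 11.9 and 8.80 at 7 days, a log2 fold change of 2.27 (SE 0.43, adjusted p = 0.00121 by limma). Each 7-day liver lay above every control and 3-day liver. The call of Bmp4 ended with log2 depth as a covariate (adjusted p up to 0.0182 by limma). Gdf15, a stress-induced member of the wider TGF-beta family, ranged from 0.869 to 1.67 in controls, from 3.40 to 7.77 after 3 days and from 15.1 to 36.0 after 7 days, a rise of 3.94 at 7 days (SE 0.34, adjusted p = 6.1e-06 by limma). Its 3-day value of 1.57 (adjusted p = 0.0617 by limma) missed the threshold with all 4 livers above all controls. Inhbb, which encodes the subunit of activin B, a ligand tied to hepcidin in inflammation, rose by 1.63 (SE 0.31, adjusted p = 0.00136 by limma) from a mean of 1.58 to 5.83. The call of Inhbb ended after quantile normalization (0.98, adjusted p = 0.0229 by limma), among females, with log2 depth as a covariate and with the 2 deepest controls. Inhba, the activin A subunit, rose by 2.40 (SE 0.59, adjusted p = 0.00669 by limma), but not with any 1 of 5 libraries left out (adjusted p up to 0.0278) and in only 16 of 26 alternatives in all. Bmp5 had a log2 fold change of -1.07 (adjusted p = 0.0196 by limma), Bmp10 of -0.61, Bmp7 of 0.85 (adjusted p = 0.0448 by limma) and Gdf2, which encodes BMP9, of 0.15.

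Among receptors and sensors, Tfr2 was lower at 7 days. Tfr2 (chromosome 5, 138011079 to 138028709, plus strand) encodes the hepatocyte transferrin receptor 2. It measured 131, 123, 145 and 178 eRPKM in controls, 105, 136, 117 and 120 at 3 days and 89.8, 77.4 and 90.3 at 7 days. All 3 livers at 7 days lay below all controls and all 3-day livers, and 3 of 4 livers at 3 days lay below all controls. Against control Tfr2 differed by -0.26 on the log2 scale (SE 0.15, adjusted p = 0.504 by limma) at 3 days and -0.73 (SE 0.16, adjusted p = 0.00299 by limma, exact permutation p = 0.0286) at 7 days. The median of its read density class was -0.38. The call ended without any 1 of the 7-day livers (adjusted p = 0.0111, 0.0193 and 0.0116 by limma without 7-day livers 1, 2 and 3), among female livers (-0.64, adjusted p = 0.0189 by limma) and after quantile normalization (-0.32, adjusted p = 0.0412 by limma). It also ended with log2 depth as a covariate (-0.53, adjusted p = 0.0216 by limma), with the 2 deepest controls (-0.57, adjusted p = 0.0176 by limma) and with the replicate number as a block (-0.68, adjusted p = 0.0122 by limma). Tfr2 was thus called in 18 of 26 alternatives, while the sign stayed negative in all 26.

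Other receptors and co-receptors were called higher or not called. Of 12 tested BMP receptors and hepcidin co-receptors, a list that also holds Tfr2 and Tmprss6, 3 were called higher and 1, Tfr2, lower, with a median of 0.07. Hfe2, which encodes the BMP co-receptor hemojuvelin, rose from 37.2, 31.8, 36.1 and 20.0 eRPKM in controls to 64.6, 44.1 and 64.4 at 7 days (0.89, SE 0.22, adjusted p = 0.00631 by limma). All 3 livers lay above all controls. Its call ended without control 2 or 7-day livers 1 or 3 (adjusted p up to 0.0354), and was made in 16 of 26 alternatives (adjusted p up to 0.0950 with log2 depth as a covariate). Neo1, encoding neogenin, which binds hemojuvelin, rose by 0.91 (SE 0.17, adjusted p = 0.00123 by limma), and Acvrl1, an endothelial type I receptor for BMP9, by 1.16 (SE 0.24, adjusted p = 0.00244 by limma), the latter lost without 7-day liver 3 (adjusted p = 0.0213). Both calls ended after quantile normalization (Neo1 0.44, adjusted p = 0.0280, and Acvrl1 0.53, adjusted p = 0.0604, by limma), among females, with log2 depth as a covariate and with the 2 deepest controls. Hfe, the partner of Tfr2 in iron sensing, was at 48.9 ± 8.96 (SD, n = 4) in controls and 69.6 ± 3.27 (SD, n = 3) at 7 days and missed the threshold (0.52, adjusted p = 0.0485 by limma). The receptor genes Bmpr1a and Bmpr2 had values of 0.05 and 0.09.

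The SMAD transducers were not called. Smad1 had a log2 fold change at 7 days of 0.54 (adjusted p = 0.0732 by limma), Smad5 of 0.05 and Smad4 of 0.10, and the last 2 were negative under both other scalings. All 4 genes of this list were uncalled in every comparison.

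The BMP response gene Id1 was higher at 7 days. Id1 (chromosome 2, 152561987 to 152563146, plus strand), encoding an inhibitor of bHLH transcription factors, measured 6.01, 15.1, 23.9 and 5.96 eRPKM in controls, 14.4, 19.1, 39.6 and 19.7 at 3 days and 75.3, 92.2 and 87.0 at 7 days. Every 7-day liver lay above every other liver, while 1 of 4 livers at 3 days lay above all controls. The means were 12.7, 23.2 and 84.9, a ratio of 6.66 between 7 days and control. On the log2 scale Id1 differed by 0.97 (SE 0.41, adjusted p = 0.362 by limma) at 3 days, rose by 2.92 (SE 0.44, adjusted p = 2.5e-04 by limma, exact permutation p = 0.0286) at 7 days, and rose by 1.95 (SE 0.44, adjusted p = 0.00488 by limma) between 3 and 7 days. The 7-day call was kept in all 26 alternatives, with values from 2.12 among female livers to 3.29. The step from 3 to 7 days was lost without any 1 of 3-day livers 1, 2 and 4 or of the 7-day livers (adjusted p up to 0.0232). Both female controls had more Id1 than both male controls, and over control and 3-day livers females were higher by 1.16 (SE 0.28, adjusted p = 0.146 by limma).

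Smad7, which encodes the inhibitory SMAD that is switched on by BMP and TGF-beta signals, missed the threshold. It lies on chromosome 18 (75527183 to 75555589, plus strand). It measured 8.24, 12.4, 10.2 and 4.19 eRPKM in controls, 8.77, 9.21, 15.3 and 9.20 at 3 days and 13.0, 23.3 and 19.0 at 7 days. The 7-day livers all lay above the controls, by a narrow margin for 7-day liver 1. Its 7-day log2 fold change was 1.09 (SE 0.33, 95% interval 0.37 to 1.80, adjusted p = 0.0202 by limma, exact permutation p = 0.0571). It was 0.65 among females (adjusted p = 0.137 by limma), 0.87 with log2 Xist (adjusted p = 0.0524 by limma), 0.70 after quantile normalization (adjusted p = 0.0539 by limma) and 0.50 with log2 depth as a covariate (adjusted p = 0.301 by limma). With any 1 library left out it lay between 0.79, without control 4, and 1.31, without 7-day liver 1.

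Of 9 tested BMP response genes, Id1 and Smad7 included, 3 were called higher at 7 days and none lower (median 0.45). Id3, a close relative of Id1, measured 50.4, 49.8, 52.9 and 27.7 eRPKM in controls, 119, 80.8, 80.2 and 80.5 at 3 days and 94.1, 110 and 108 at 7 days. All induced livers lay above all controls. Id3 rose by 1.23 at 7 days (SE 0.22, adjusted p = 0.00102 by limma), and its 3-day value of 1.01 (SE 0.21, adjusted p = 0.0707 by limma) missed the threshold. The median of the read density class of Id3 and Id2 at 7 days was -0.38, and the 7-day call of Id3 ended with log2 depth as a covariate (0.95, adjusted p = 0.0188 by limma). Atoh8, a bHLH factor that responds to BMP in hepatocytes, rose by 1.21 (SE 0.30, adjusted p = 0.00634 by limma), lost without any 1 of 5 libraries (adjusted p up to 0.0370) and under both other scalings, and called in 14 of 26 alternatives. Id2 and Smad6 had values of 0.14 and 0.45 and were not called. Hamp, the hepcidin target of the same signal, thus had no call beside the called rises of Id1, Id3 and Atoh8, and whether their changes arose in the same cells cannot be told apart in whole liver.

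Tmprss6, the protease that cleaves hemojuvelin, was not called at any time. Tmprss6 (chromosome 15, 78270098 to 78299064, minus strand) measured 121, 114, 125 and 150 eRPKM in controls, 160, 134, 114 and 166 at 3 days and 107, 97.3 and 103 at 7 days. The 3 livers at 7 days lay below all controls and all 3-day livers. Its log2 fold change was -0.31 (SE 0.16, 95% interval -0.66 to 0.04, adjusted p = 0.146 by limma) at 7 days and -0.47 (SE 0.16, adjusted p = 0.0378 by limma) from 3 to 7 days, beside a class median of -0.38 at 7 days, and both turned positive after quantile normalization (0.14 and 0.02).

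Of 11 tested BMP antagonists and hepcidin suppressors 4 were called higher and 1 lower at 7 days, with a median of 1.16. Bmper, a secreted BMP-binding protein, was 0.591, 1.49, 1.91 and 0 eRPKM in controls and 13.7, 12.2 and 13.7 at 7 days, with 0.212 to 5.77 at 3 days, and rose by 3.43 (SE 0.68, adjusted p = 0.00184 by limma). All 7-day livers lay above all others. The call of Bmper ended with log2 depth as a covariate and with the 2 deepest controls (adjusted p up to 0.0417 by limma). Fkbp1a, whose product FKBP12 binds type I receptors and keeps them silent, rose by 1.27 (SE 0.22, adjusted p = 7.5e-04 by limma), and Pdgfb, a growth factor, by 2.25 (SE 0.43, adjusted p = 0.00137 by limma) from a mean of 0.745. Pdgfb had 0 eRPKM in control 4, and its call ended with log2 depth as a covariate (adjusted p up to 0.0214 by limma). Fgl1, a hepatocyte-secreted antagonist of BMP ligands, fell by 0.95 (SE 0.25, adjusted p = 0.00900 by limma), and its call ended without any 1 of 9 libraries (adjusted p up to 0.0432) and under both other scalings. Fgl1 was called in 7 of 26 alternatives, beside a class median of -0.38. Furin had a value of 0.40 and was not called.

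Inputs to hepcidin other than BMP were mostly uncalled. Of 13 tested genes 2 were called higher and 1 lower. Il22ra1, the IL-22 receptor of hepatocytes, rose by 1.32 (SE 0.31, adjusted p = 0.00455 by limma) from a mean of 3.29 to 9.06 eRPKM, lost without control 4 or 7-day livers 2 or 3 (adjusted p up to 0.0329), after quantile normalization (0.71), among females, with log2 depth as a covariate and with the 2 deepest controls. Il6, the other, rose by 1.39 (SE 0.31, adjusted p = 0.00394 by limma), from a mean of 0.277 to 1.58 eRPKM. It rested on 0 to 27 reads per library, and its mean over all livers was below the 1 eRPKM set for named genes. Il1b had a value of 1.21 (adjusted p = 0.0205 by limma) and was not called. Creb3l3, a liver stress transcription factor that can raise hepcidin, was 109, 103, 132 and 131 in controls and 59.3, 65.8 and 60.7 at 7 days, and fell by 0.93 (SE 0.15, adjusted p = 5.5e-04 by limma), with all 3 livers below all others and a class median of -0.38. Il6ra and Stat3, which carry the IL-6 signal, had values of 0.28 (adjusted p = 0.519 by limma) and -0.04 (adjusted p = 0.911 by limma), and Cebpa and Hnf4a of -0.75 (adjusted p = 0.0182 by limma) and -0.35 (adjusted p = 0.0662 by limma), both in the class with a median of -0.38. Hepatocyte markers were called lower at 7 days for 3 of 7, and their summed level was 1345 to 3767 eRPKM in controls, 1614 to 1957 in 3-day livers and 971 to 1078 in 7-day livers. This sum includes Alb, Ttr and Apoa1, whose eRPKM in control 4 was 3.43, 2.50 and 3.33 times that in control 2. The class of densest genes had a median of -0.73 at 7 days. The part of depth in this sum, and of hepatocyte markers in the values of Hamp, Hamp2, Tfr2 and Creb3l3, was not tested.

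**Figure D4:**
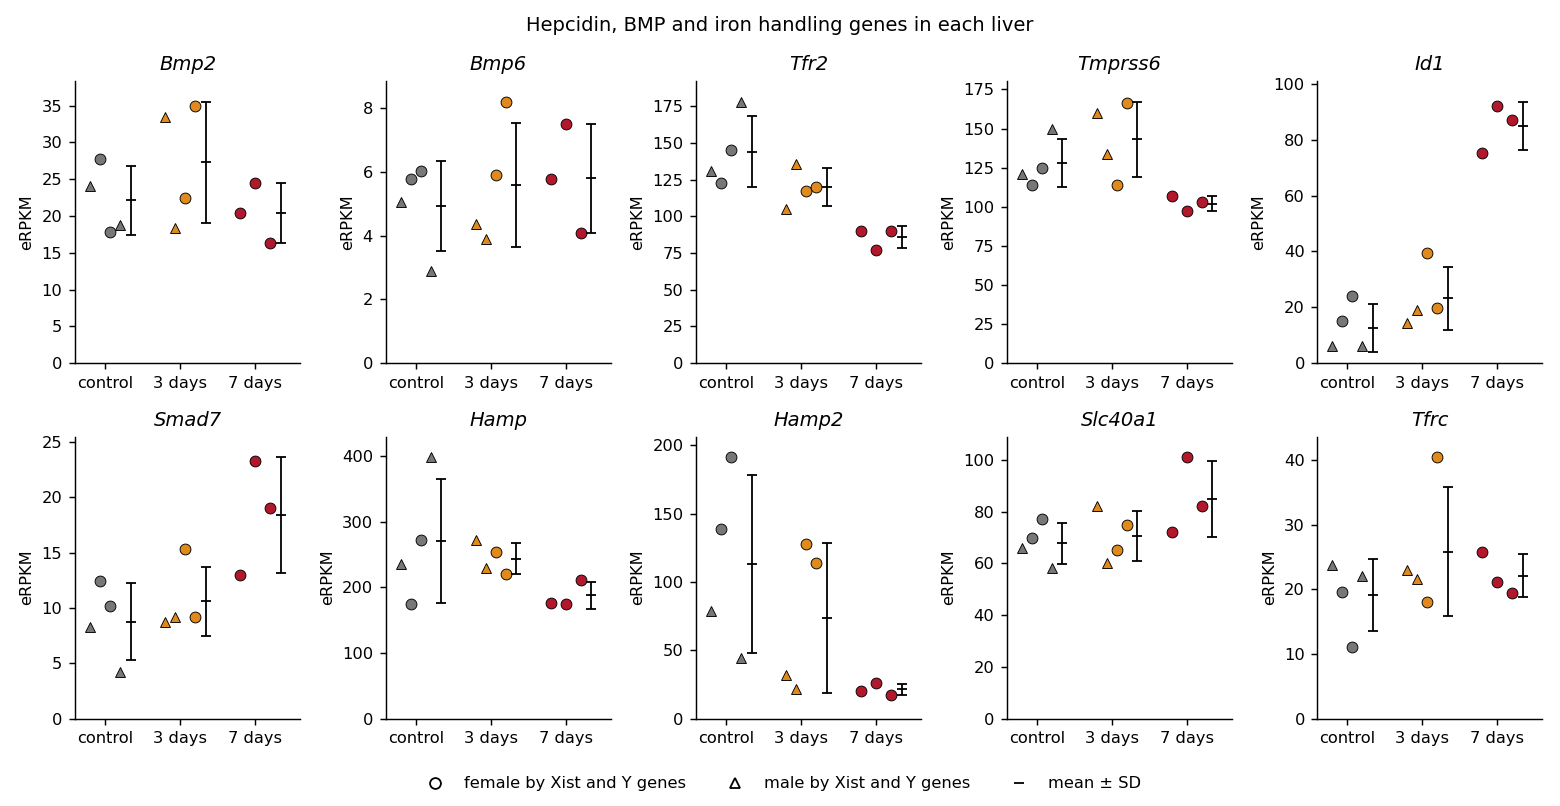
eRPKM (vertical axes, from 0) of each of the 10 genes in each of the 11 livers by group, circles for female and triangles for male livers by Xist and Y-linked genes, with the mean and SD beside each group. The 7-day livers sit above all others for Id1 (75.3 to 92.2), below all others for Tfr2 (77.4 to 90.3), and overlap the controls for Bmp2, Bmp6, Hamp, Slc40a1 and Tfrc.

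Slc40a1, encoding ferroportin, was not called against control at either time. Slc40a1 (chromosome 1, 45964915 to 45982439, minus strand) measured 66.0, 69.8, 77.3 and 58.2 eRPKM in controls, 82.1, 60.2, 65.2 and 74.9 at 3 days and 72.1, 101 and 82.2 at 7 days. Of the 7-day livers 2 of 3 lay above all controls. Against control Slc40a1 differed by 0.05 on the log2 scale (SE 0.15, 95% interval -0.27 to 0.38, adjusted p = 0.916 by limma) at 3 days and 0.32 (SE 0.16, 95% interval -0.04 to 0.67, adjusted p = 0.146 by limma) at 7 days, beside a class median of -0.38. The 7-day value was 0.05 with size factors and 0.60 after quantile normalization (adjusted p = 0.0129 by limma), where the step from 3 to 7 days was called, at 0.67 (adjusted p = 0.00897 by limma). The genes nearest to it in pattern over the 11 livers were Zscan21, Abi1 and Gpkow, with root mean square differences of 0.10, 0.12 and 0.13 on the log2 scale among 12575 genes.

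Tfrc, encoding the transferrin receptor 1 that takes up transferrin-bound iron, was also uncalled. Tfrc (chromosome 16, 32609006 to 32632880, plus strand) measured 23.7, 19.6, 11.1 and 22.0 eRPKM in controls, 23.0, 21.6, 18.1 and 40.4 at 3 days and 25.8, 21.2 and 19.4 at 7 days. The groups overlapped at both times. The 7-day log2 fold change of Tfrc was 0.25 (SE 0.29, 95% interval -0.37 to 0.88, adjusted p = 0.518 by limma), and it was -0.01 with size factors and -0.03 with quantile normalization. Over the same livers 4 of 4 proliferation markers were called higher at 7 days, with a summed level of 3.69 to 16.6 in controls, 12.6 to 91.4 in 3-day livers and 89.3 to 138 in 7-day livers.

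In controls the order of levels per length was Hamp (270), Tfr2 (144), Tmprss6 (128), Hamp2 (113), Slc40a1 (67.8), Bmp2 (22.1), Tfrc (19.1), Id1 (12.7), Smad7 (8.75) and Bmp6 (4.94 eRPKM). Of these neighbours, only Slc40a1 and Bmp2 had ranges in the 4 controls that did not overlap. Over all 11 livers the pattern of Tfr2 was nearest to that of Hamp among the 10 genes (root mean square difference 0.27), Slc40a1 and Bmp6 were each nearest to the other (0.32), and Id1 and Hamp2 stood apart, with 1.11 to Smad7 and 1.23 to Tfr2 as their nearest. These distances describe livers that share depth and sex effects.

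Around uptake, storage and regulation of iron, most genes were uncalled. Of 13 genes for uptake and transport 1 was called higher and 1, Tfr2, lower. Steap3, the ferrireductase of the transferrin cycle, was 12.1, 10.8, 12.6 and 4.15 eRPKM in controls, 13.5, 17.0, 23.1 and 16.7 at 3 days and 33.5, 33.2 and 37.8 at 7 days. All induced livers lay above all controls, and the rise at 7 days was 1.87 (SE 0.31, adjusted p = 5.7e-04 by limma). Trf, encoding transferrin, had -0.68 (adjusted p = 0.107 by limma) at 7 days. Of 9 tested storage and export genes 1 was called: Slc11a1, the NRAMP1 transporter of macrophage phagosomes, which was 5.94 to 11.2 in controls, 5.53 to 13.5 in 3-day livers and 42.0 to 59.7 in 7-day livers (2.54, SE 0.28, adjusted p = 3.2e-05 by limma). The ferritin genes Fth1 and Ftl1 had values of -0.53 (adjusted p = 0.0937 by limma) and -0.75 (adjusted p = 0.0532 by limma). Trf, Fth1 and Ftl1 lay in the densest class, with a median of -0.73. Fth1 and Trf turned positive after quantile normalization (0.07 and 0.16).

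Of 9 genes for iron regulatory proteins and oxygen sensing, 1 was called in each direction. Ireb2, encoding the iron regulatory protein IRP2, which binds iron-responsive elements of Tfrc, ferritin and Slc40a1 transcripts, was 81.6, 59.4, 51.6 and 63.8 eRPKM in controls, 97.1, 49.4, 48.7 and 65.0 at 3 days and 25.6, 33.3 and 21.4 at 7 days. The 3 livers at 7 days lay below all others, and the fall was 1.25 on the log2 scale (-1.25, SE 0.25, adjusted p = 0.00175 by limma), lost without 7-day liver 3 (adjusted p = 0.0129). The call of Ireb2 also ended with log2 depth as a covariate (adjusted p up to 0.0197 by limma). Aco1, encoding IRP1, had -0.18 (adjusted p = 0.374 by limma). Egln1, the oxygen-sensing prolyl hydroxylase PHD2, rose by 0.92 (SE 0.17, adjusted p = 9.8e-04 by limma). That call ended with log2 depth as a covariate and with the 2 deepest controls (adjusted p up to 0.0151 by limma).

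Called genes of heme scavenging and breakdown were higher at 7 days and called genes of heme synthesis lower, while most genes of both lists were uncalled. Of 10 tested genes for heme and hemoglobin scavenging and breakdown 4 were called higher and none lower. Of all tested genes 18.0% were called higher and 5.77% lower. The list median of 0.19 was below the 0.26 of all tested genes. Hmox1, encoding heme oxygenase 1, which releases iron from heme, was 9.64, 12.2, 15.1 and 7.88 eRPKM in controls, 8.55, 15.1, 18.9 and 14.5 at 3 days and 68.8, 88.1 and 78.0 at 7 days, a rise of 2.78 (SE 0.26, adjusted p = 1.0e-05 by limma). Cd163, the macrophage receptor for haptoglobin-bound hemoglobin, was 4.43, 15.4, 15.6 and 10 in controls, 8.75, 11.1, 13.5 and 18.0 at 3 days and 82.4, 71.5 and 75.7 at 7 days, a rise of 2.84 (SE 0.36, adjusted p = 7.2e-05 by limma). In both genes every 7-day liver lay far above the others. The heme transporter gene Slc48a1 rose by 0.89 (SE 0.18, adjusted p = 0.00201 by limma) and Blvra, encoding biliverdin reductase A, by 0.73 (SE 0.18, adjusted p = 0.00708 by limma). The former call ended without 7-day livers 2 or 3 (adjusted p up to 0.0138) and the latter without any 1 of 6 libraries (up to 0.0459). Slc48a1 was called in 21 and Blvra in 12 of 26 alternatives, and the call of Blvra also ended under both other scalings (0.47 with size factors and 0.37 with quantile normalization), among females, with log2 Xist, with log2 depth and with the 2 deepest controls (adjusted p up to 0.0854). Hpx and Hp, the plasma scavengers hemopexin and haptoglobin made by hepatocytes, had values of -0.85 (adjusted p = 0.0600 by limma) and -0.62 (adjusted p = 0.124 by limma), beside a class median of -0.73.

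Markers of Kupffer cells and macrophages moved with these genes. Of 7 tested 6 were called higher at 7 days, and their summed level was 188 to 393 eRPKM in controls, 220 to 424 in 3-day livers and 792 to 850 in 7-day livers. Slc11a1, Cd163 and Hmox1 are genes of such cells, and Slc40a1 is expressed in them too. The part of macrophage markers in the values of these 4 genes was not tested. Of the other marker lists at 7 days, 1 of 6 stellate and fibroblast genes and 1 of 2 tested erythroid genes were lower, 1 of 4 cholangiocyte genes was higher and 0 of 4 lymphocyte genes were called. The erythroid marker Slc4a1 was under 1 eRPKM in every liver.

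Of 8 genes of heme synthesis 3 were called lower and none higher (median -0.40), beside 5.77% lower and 18.0% higher of all tested genes. Uros, Cpox and Fech, which act late in the pathway, fell by 0.90 (-0.90, SE 0.23, adjusted p = 0.00880 by limma), 0.78 (-0.78, SE 0.16, adjusted p = 0.00258 by limma) and 0.50 (-0.50, SE 0.13, adjusted p = 0.00921 by limma). Alas1, the rate-limiting first enzyme in liver, had -0.69 (adjusted p = 0.0311 by limma), beside a class median of -0.38. The calls of Uros and Fech ended without any 1 of 8 and of 9 libraries (adjusted p up to 0.0389 and 0.0385), and that of Cpox without 7-day livers 2 or 3 (up to 0.0150). Of 26 alternatives, 11 called Uros, 7 Fech and 21 Cpox. Of 14 genes for mitochondrial iron and iron-sulfur clusters 1 was called in each direction. Cisd1, encoding the outer-membrane iron-sulfur protein mitoNEET, fell from 129, 114, 127 and 131 to 75.1, 62.5 and 73.5 eRPKM (-0.83, SE 0.13, adjusted p = 4.4e-04 by limma), beside a class median of -0.38. Slc25a28, encoding the mitochondrial iron importer mitoferrin 2, rose by 0.92 (SE 0.22, adjusted p = 0.00600 by limma). The last call was lost without any 1 of 5 libraries (adjusted p up to 0.0421), and also under both other scalings (0.67 with size factors and 0.45 with quantile normalization), among females, with log2 Xist, with log2 depth and with the 2 deepest controls (adjusted p up to 0.0976).

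Across all lists, without the 10 genes, 111 distinct genes were tested. At 3 days 0 were called by limma, with 8 at an unadjusted p under 0.05, and 0 by limma-voom, beside 0.0421% of all tested genes. At 7 days 23 were called higher and 7 lower, beside 18.0% and 5.77% of all tested genes. Of the 28 named here that were called, 15 were called with any 1 of the 11 libraries left out, and none changed sign in any of the 26 alternatives. With log2 depth as a covariate 8 of the 28 were called, with the 2 deepest controls 12, among females 15 and after quantile normalization 19. Depth was largely confounded with the 7-day group, and the fits of females and of the deepest controls held 2 controls each. The 8 called in every alternative were Gdf15, Hmox1, Cd163, Slc11a1, Steap3, Fkbp1a, Creb3l3 and Cisd1.

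**Figure D5:**
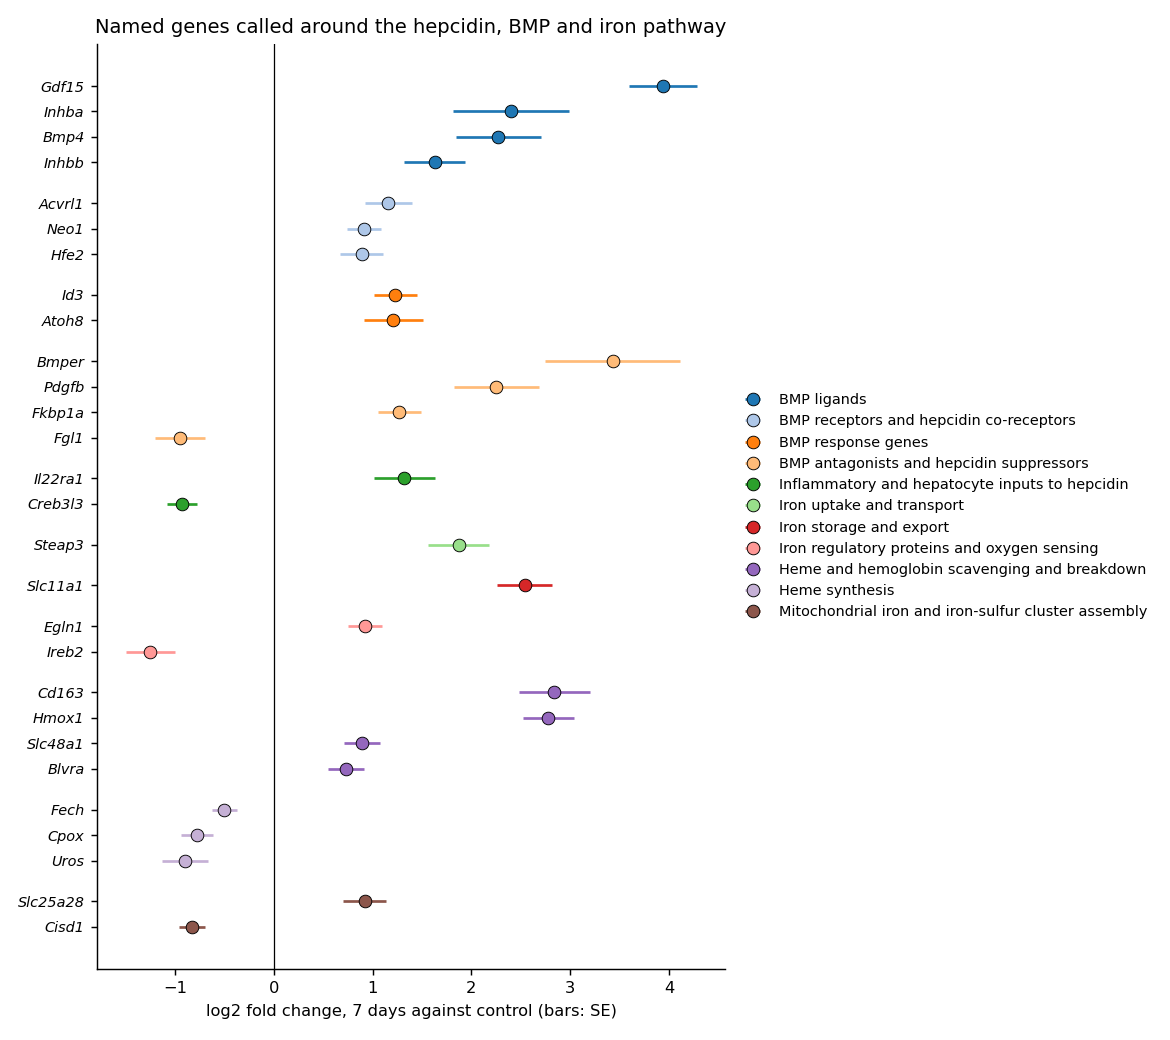
Log2 fold change at 7 days against control (horizontal axis, bars are SE) of the 28 called genes named around the pathway, coloured and grouped by gene list. Gdf15 (3.94), Bmper (3.43), Cd163 (2.84) and Hmox1 (2.78) are furthest to the right and Ireb2 (-1.25) furthest to the left.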

How the data were processed

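Per the labels, total RNA of 11 homogenized mouse livers was made into TruSeq v2 libraries. After masking bases of low quality, the authors mapped pairs to mm9 with an unstranded setting of TopHat2 2.0.8, and featureCounts 1.4.5-p1 stands in the submitters' processing notes. Treatment of duplicates was not given in the sources used here. The deposited values are eRPKM, an RPKM scaled by the authors to each library. The table's 3 columns of the authors' DESeq2 comparison at 7 days (mean, log2 fold change, adjusted p) were not used.

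Genes with at least 0.5 eRPKM in 3 libraries were tested on log2(eRPKM + 0.5) with limma 3.58.1 (R 4.3.3, trend, Benjamini-Hochberg over all genes), checked on simulated data. Exact permutations, sequences and plots used Python 3.11.15. Reads were recovered from the steps of low values, with the unit of each library set from GENCODE M1 lengths. The length of a gene was then the one that made its values whole, scaled to the annotation where it was a fraction of it. It equalled the annotated length for 3197 of 19015 genes. Of the values 99.99% lay within 0.1 of whole numbers, which the choice of length largely ensures. Counting error only is covered by read numbers. The 10 genes and the lists were chosen with earlier results of these data known. Named were the 10 genes, core genes, and from each list up to 4 genes called at 7 days per direction with a mean of at least 1 eRPKM. Other genes given with values were chosen after these were seen. Alternatives changed the pseudocount, filter, scaling, groups in the fit, threshold, covariates (sex, depth, replicate number) or left out a library. Some listed genes are not reported here and were left out of the list counts after their values were seen.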

Additional observations from a re-analysis of the deposited data

Results flagged for a closer look

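Among 22 sets of 4 livers (each of the 10 genes and the depth, in controls and at 3 days), 2 held a liver whose gap to the nearest one took up more of the range than Dixon's limit at 95% for 4 values, where chance alone passes about 1 in 20 sets. Smad7 in 3-day liver 3 (15.3 eRPKM beside 8.77, 9.21 and 9.20) had a ratio of 0.932. The reads on genes of 3-day liver 1 (2690967 beside 3672892 to 3729962) had a ratio of 0.945. Id1 differed between the times of induction by a test of the difference itself, with a log2 step of 1.95 from 3 to 7 days (adjusted p = 0.00488 by limma), and every 7-day liver lay above every 3-day liver.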

How the results depend on the processing

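Of 26 alternatives, those of depth as a covariate, the 2 deepest controls and recovered reads, and the sex comparison, were chosen after seeing the data. The number of all genes called at 3 days, 6, was 3 with no filter, 12 with size factors, 0 in a fit of the 2 groups only (1360 at an unadjusted p under 0.05), 16 with log2 Xist, 0 without trend (1697), 41 at an adjusted p under 0.05 and no limit on fold change, 1 with log2 depth, 0 with the 2 deepest controls (1549) and 1 with limma-voom on recovered reads. At 7 days it was 3383, and 2128 among females, 5390 at an adjusted p under 0.05, 1675 with log2 depth and 1985 with the 2 deepest controls. From 3 to 7 days it was 2753, and 1424, 5085 and 1682 in the first 3 of these. Leaving out 1 library gave 0 to 54 genes at 3 days (54 without 3-day liver 1), 2057 to 3684 at 7 days and 1412 to 3683 between them.

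Of the 10 genes, 0 were called at 3 days in every alternative. At 7 days 2 were called, and 1 with log2 depth or the 2 deepest controls, 4 at an adjusted p under 0.05, and 1 to 3 with 1 library left out. From 3 to 7 days 1 was called, and 2 with quantile normalization, log2 Xist or females only, 3 at an adjusted p under 0.05, 0 with log2 depth, and 0 to 1 with 1 library left out. The sex difference of Hamp2 was called in 6 of 16 alternatives (1.64 to 2.06, adjusted p 0.00131 to 0.140 by limma).

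With the replicate block, 3 genes were called at 3 days and 1 of the 10 at 7 days, Tfr2 being lost (adjusted p = 0.0122 by limma), and Tfrc from 3 to 7 days was 0.00. Deviations of livers with the same number correlated from -0.22 to 0.27, and those of livers with different numbers from -0.28 to 0.24. Because the livers also differ in sex and depth, these correlations cannot tell whether a number stands for a shared litter or experiment.

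Values that turned in sign were all of uncalled results. With quantile normalization they were, at 3 days, Hamp 0.05 and Slc40a1 -0.07; at 7 days, Bmp6 -0.43, Tmprss6 0.14, Hamp 0.27, Tfrc -0.03, Fth1 0.07, Smad4 -0.09, Smad5 -0.20 and Trf 0.16; from 3 to 7 days, Bmp6 -0.56, Tmprss6 0.02 and Hamp 0.23; by sex, Tfr2 0.06 and Tmprss6 0.02. With size factors, Bmp6 was -0.02 at 7 days and -0.16 from 3 to 7 days, Tfrc -0.01, Smad4 -0.16 and Smad5 -0.21, and by sex Bmp2 and Slc40a1 were 0.00. With log2 depth, Hamp was 0.05 at 3 days and 0.04 at 7 days, Bmp6 -0.18 and, from 3 to 7 days, -0.23, Fth1 0.01, Smad5 -0.18 and Trf 0.10. Among females, Hamp was 0.12 and Slc40a1 -0.07 at 3 days, Bmp6 -0.06 at 7 days and -0.28 from 3 to 7 days, and Smad5 0.00. With log2 Xist, Bmp6 was 0.00 and -0.18 in the same comparisons. With the 2 deepest controls, Bmp6 was -0.01 and Hamp 0.26 at 3 days, Smad4 -0.03 and Smad5 -0.17 at 7 days. Leaving out 1 library gave Bmp2 -0.25 to 0.04 at 7 days and -0.06 to 0.28 by sex, Bmp6 -0.06 to 0.30 at 3 days and -0.13 to 0.27 from 3 to 7 days, Hamp -0.28 to 0.12 and Slc40a1 -0.02 to 0.13 at 3 days, Smad5 -0.04 to 0.14 at 7 days, Tfr2 -0.19 to 0.01 by sex, and Tfrc -0.30 to 0.08 from 3 to 7 days and -0.48 to 0.08 by sex. The cause was not tested. Depth limits Bmp6, Id1, Smad7 and Hamp2 most, with 9, 7, 24 and 25 reads in control 4.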
